A study of Homo sapiens with 4 samples.

Results

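The ZNF genes are the human genes whose approved symbol is ZNF followed by a number, nearly all of them encoding proteins built from C2H2 zinc fingers. Of the 38972 genes in the deposited table, 507 carried such a symbol, and the 314 whose mean over the 4 libraries reached 5 TPM are described here. TPM is the share of a gene's transcripts in its library, corrected for gene length and scaled to a fixed total. RNA sequencing was done on HEK293T cells, a transformed line from human embryonic kidney. The 2 control libraries came from cells overexpressing Flag, an epitope tag, and the other 2 from cells overexpressing RNase H1, the nuclease that cuts RNA paired with DNA. The series maps R-loops, structures in which a transcript pairs with one strand of the DNA duplex and leaves the other strand unpaired. All 4 libraries were from the same cell line, and the labels give no vector, time or dose of overexpression and no separate cultures. P-values thus reflect the spread among these libraries alone, and that spread may be technical.

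A C2H2 zinc finger folds around a zinc ion held by a pair of cysteines and a pair of histidines, and arrays of such fingers read DNA, or in some proteins RNA. The largest group of ZNF proteins carries an N-terminal KRAB box, which binds the corepressor TRIM28. TRIM28 then brings in the histone methyltransferase SETDB1, HP1 proteins and the NuRD deacetylase complex, and the bound DNA, often a transposable element, is packed into heterochromatin. The genes arose by repeated tandem duplication and stand in clusters, most of them on chromosome 19.

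The endogenous gene did not show the overexpression. RNASEH1 stood at 32.09 and 32.8 TPM in the Flag libraries and at 29.93 and 29.67 TPM in the libraries labelled RNase H1 (log2 fold change -0.12 ± 0.06 SE, adjusted p = 0.26). Whether the table counts transcripts of the construct is not given in the sources used here, so the group names below are those of the labels. Summed TPM of 6 genes typical of HEK293T was 367 and 369 in the Flag libraries against 234 and 224 in the RNase H1 libraries, most of it IRS4 at 216.94 and 217.96 against 106.57 and 99.86 TPM. The 6 did not move together: NEFL, NEFM and LIN28B were also lower, PAX2 stayed between 1.29 and 1.86 TPM, and TUBB3 went the other way, from 11.43 and 14.66 to 21.33 and 20.85 TPM. The part of these marker differences in the results below was not tested. Of 17 markers of blood cells, fibroblasts, hepatocytes and keratinocytes, 5 reached a mean of 1 TPM. PTPRC was at or under 0.02 TPM in each library, and HBB, APOB, TTR and KRT7 were listed at 0 in all 4. Depth is unknown, because TPM does not retain it. In bulk RNA, a change in the mix of cells and a change in RNA per cell cannot be told apart.

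Most of the 314 genes were measured higher in the RNase H1 libraries, by small amounts. The test was limma on log2(TPM + 1) over the 15651 genes of mean at least 1 TPM, with p-values adjusted over all of them by the Benjamini-Hochberg method and adjusted p under 0.05 taken as a change. By this test 62 of the 314 ZNF genes (19.7%) rose, beside 6.3% of all tested genes, and 5 (1.59%) fell, beside 5.54%. The other 247 did not pass. Over the tested genes that also had a mean of at least 5 TPM, 7.99% rose and 7.17% fell. The median log2 fold change of the ZNF genes was 0.21 (interquartile range 0.07 to 0.37) and that of all tested genes was 0.00. A total of 251 ZNF genes were measured higher and 63 lower, while 50.6% of all tested genes were higher. In 207 of the 314 (65.9%) both RNase H1 libraries exceeded both Flag libraries, as in 31.3% of all tested genes. The reverse order held for 35 (11.1%), beside 29.4% of all tested genes.

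The shift was alike in both RNase H1 libraries. Taking each gene's deviation from its Flag mean, the median over the 314 genes was 0.23 and 0.19 in the RNase H1 libraries, against 0.01 and 0.00 over all tested genes. Summed over the 314 genes, the Flag libraries held 5839 and 5858 TPM and the RNase H1 libraries 6715 and 6567 TPM, a ratio of the means of 1.14. Among the 62 genes that rose, log2 fold changes ran from 0.21 to 0.96 with a median of 0.50, and adjusted p ran from 0.00903 to 0.0493. None of the 62 reached a doubling on the log2(TPM + 1) scale. With any 1 of the 4 libraries left out, 0 of the 314 passed the adjusted threshold by limma, although 84 to 108 were higher and 11 to 12 lower at an unadjusted p under 0.05, beside 11.1% to 13.5% and 9.74% to 12.3% of all tested genes. The most calls among all tested genes then came without Flag replicate 2, 0.0639% higher and 0.0319% lower. With all 4 libraries these unadjusted counts were 139 and 13, beside 16.2% and 15.1% of all tested genes. After each library was corrected for the GC content of transcripts, 44 ZNF genes rose and 3 fell, beside 5.32% and 4.79% of all tested genes. Of the 62 and 5, 41 and 2 still passed.

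**Figure D1:**
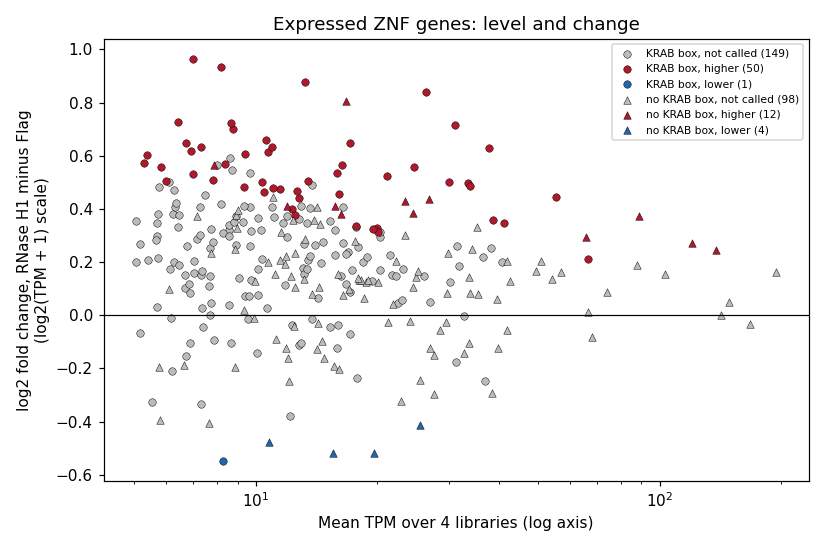
Each of the 314 ZNF genes by its mean TPM over the 4 libraries (horizontal, log axis) and its log2 fold change, RNase H1 minus Flag, on the log2(TPM + 1) scale (vertical). Circles have a KRAB box and triangles have none, and red, blue and grey mark genes that rose, fell or did not pass. The 62 red points have means from 5.28 to 138 TPM, the 4 genes with the highest means are grey, and 4 of the 5 blue points are triangles.

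A KRAB box was found in an annotated translation of 200 of the 314 genes. Of these KRAB genes 50 rose (25%), 1 fell and 149 did not pass, with a median log2 fold change of 0.28. Of the 114 ZNF genes without the box 12 rose (10.5%), 4 fell and 98 did not pass, with a median of 0.13. Of all tested genes 6.3% rose and 5.54% fell, and of those of mean at least 5 TPM 7.99% and 7.17%. Summed TPM of the KRAB genes went from 2466 in each Flag library to 3056 and 2975 in the RNase H1 libraries, a ratio of 1.22. For the genes without the box it went from 3373 and 3392 to 3660 and 3593 TPM, a ratio of 1.07. The KRAB genes had a median transcript GC content of 42.7% and the others 49.8%. After GC correction 31 KRAB genes rose (15.5%), with a median of 0.25, and 13 without the box rose (11.4%), with a median of 0.11. Of all tested genes 5.32% then rose, and 6.63% of those of mean at least 5 TPM. The difference between ZNF genes with and without the box was not tested.

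**Figure D2:**
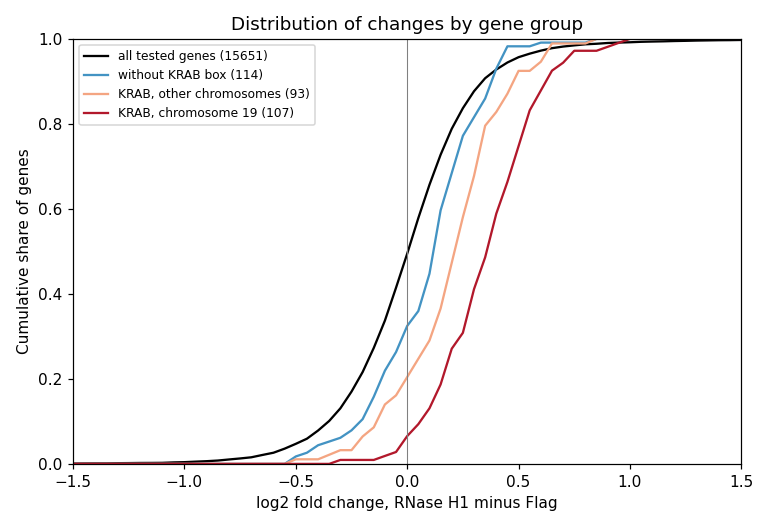
Cumulative share of genes (vertical) at or below each log2 fold change, RNase H1 minus Flag (horizontal), for all 15651 tested genes, the 114 ZNF genes without a KRAB box, the 93 KRAB genes of other chromosomes and the 107 KRAB genes of chromosome 19. The 3 ZNF curves lie to the right of the curve of all tested genes at 0, with medians of 0.13, 0.21 and 0.35 against 0.00.

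The largest increase was that of ZNF256, a KRAB gene of 15 finger patterns on the minus strand of chromosome 19 (GRCh38, 57940833 to 57947675). It measured 3.95 and 4.91 TPM in the Flag libraries and 9.69 and 9.41 TPM in the RNase H1 libraries, a ratio of means of 2.16 (log2 fold change 0.96 ± 0.13 SE, adjusted p = 0.0156). Both RNase H1 values lay well above both Flag values. ZNF530 and ZNF548 lie near it on the same chromosome. ZNF530 (chromosome 19, 57599885 to 57612722, plus strand) went from 4.19 and 4.91 to 7.1 and 9.39 TPM (0.73 ± 0.16, adjusted p = 0.0408), and after GC correction it missed the threshold (adjusted p = 0.0528). For ZNF548 (chromosome 19, 57389850 to 57402992, plus strand) the values were 6.31 and 6.25 against 10.29 and 11.81 TPM (0.72 ± 0.11, adjusted p = 0.0196). The Flag means of ZNF256 and ZNF530, 4.43 and 4.55 TPM, were under the threshold of 5 TPM, so both entered the 314 through their RNase H1 values and had to differ. About 10.2% of the 50-base words in ZNF548 transcripts also occur in other genes, so part of its reads could be shared.

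The 200 bases before the transcription start of these 3 genes are shown because they carry a common stretch, and those of ZNF608, ZNF358 and ZNF516 for contrast. Each is RefSeq sequence of GRCh38.p14 read from 5′ to 3′ on the gene's strand: chr19:57947707-57947906 (minus), chr19:57599685-57599884 (plus), chr19:57389654-57389853 (plus), chr5:124748825-124749024 (minus), chr19:7515903-7516102 (plus) and chr18:76495243-76495442 (minus). The window of ZNF358 lies inside the gene's GENCODE bounds but in none of its exons. Capitals mark matches to the motifs listed after the sequences.
ZNF256: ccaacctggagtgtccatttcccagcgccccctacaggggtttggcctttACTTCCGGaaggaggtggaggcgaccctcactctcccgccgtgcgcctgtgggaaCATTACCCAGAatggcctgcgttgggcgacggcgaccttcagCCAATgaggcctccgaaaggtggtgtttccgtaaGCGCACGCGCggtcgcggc
ZNF530: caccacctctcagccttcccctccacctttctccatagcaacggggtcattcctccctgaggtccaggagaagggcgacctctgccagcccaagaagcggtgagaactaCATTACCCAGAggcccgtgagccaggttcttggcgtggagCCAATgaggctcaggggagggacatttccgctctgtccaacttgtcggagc
ZNF548: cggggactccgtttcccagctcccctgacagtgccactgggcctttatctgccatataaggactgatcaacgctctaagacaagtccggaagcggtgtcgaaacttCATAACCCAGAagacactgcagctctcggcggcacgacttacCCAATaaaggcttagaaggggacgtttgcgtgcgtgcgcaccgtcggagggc
ZNF608: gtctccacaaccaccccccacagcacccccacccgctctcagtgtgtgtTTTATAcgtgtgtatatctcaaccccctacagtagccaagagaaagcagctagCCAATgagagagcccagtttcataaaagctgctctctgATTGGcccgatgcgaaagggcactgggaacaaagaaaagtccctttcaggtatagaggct
ZNF358: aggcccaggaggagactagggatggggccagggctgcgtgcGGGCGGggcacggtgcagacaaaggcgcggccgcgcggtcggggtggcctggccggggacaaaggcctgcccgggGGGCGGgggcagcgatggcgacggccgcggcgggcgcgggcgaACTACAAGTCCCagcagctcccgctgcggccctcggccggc
ZNF516: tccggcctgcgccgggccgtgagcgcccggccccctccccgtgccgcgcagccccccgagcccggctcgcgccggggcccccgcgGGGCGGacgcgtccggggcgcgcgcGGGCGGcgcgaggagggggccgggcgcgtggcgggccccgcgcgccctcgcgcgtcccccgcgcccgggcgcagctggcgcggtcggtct

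The 3 KRAB promoters each held a match to CATNACCCAGA followed by CCAAT, the box read by NF-Y, and ZNF256 also held an ETS match and an NRF1 match. That stretch is the longest, with at most 1 variable base N, that the 3 share, and they were picked after their sequences had been seen. The 200 bases before ZNF350 and ZNF461, KRAB genes of chromosome 19 that also rose, lacked the stretch and are not shown. Those of ZNF350 held CCAAT and those of ZNF461 none of the motifs. In windows from 250 bases before to 50 bases after the start, available for 273 of the 314 genes, the stretch occurred in 9. All 9 had a KRAB box, 3 rose and 6 did not pass. The 3 are ZNF256, ZNF530 and ZNF548, from which the stretch was taken, so their matches were given in advance. It was in 26 (0.0952%) of all 27305 windows and in 0.123% of those of tested genes of mean at least 5 TPM. The promoter of ZNF608 held the TATA box letters on the opposite strand and a pair of CCAAT boxes, those of ZNF358 and ZNF516 a pair of GGGCGG boxes each, and ZNF358 also a ZNF143 match. Their GC content was 51.5%, 78.5% and 89.5%.

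The other motifs were searched on both strands as CCGGAAGT for ETS factors, TGACGTCA for CREB, TGANTCA for AP-1, CACGTG for MYC, GGGCGG for Sp1, TATAAA for the TATA box and CCAAT for NF-Y, with the core motifs of NRF1, ZNF143 and YY1. No capitalised matches overlap in the windows shown. The ETS letters occurred in 59 of the 273 ZNF windows (21.6%), in 10.2% of the windows of tested genes of mean at least 5 TPM, and in 4.44% of all windows. Among KRAB genes they were in 33.3% of the 45 windows of genes that rose and in 20.2% of the 129 that did not pass. In the same windows CCAAT was in 51.1% and 55.8%, GGGCGG in 60% and 59.7%, and CACGTG in 4.44% and 8.53%. These differences were not tested. CCAAT was in 54.9% of KRAB windows, 33.7% of windows of ZNF genes without the box and 37.8% of those of tested genes of mean at least 5 TPM. GGGCGG was in 62.6% of ZNF windows and 72.5% of those of tested genes of mean at least 5 TPM. A match is a stretch of letters, and no binding was measured.

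Among the 8 largest increases, 7 belonged to KRAB genes. ZNF84, at the end of the long arm of chromosome 12 (133037292 to 133063304, plus strand), had 19.14 and 18.1 TPM in the Flag libraries and 32.34 and 35.94 TPM in the RNase H1 libraries (0.84 ± 0.08, adjusted p = 0.00903). Of the other 5 ZNF genes beside it there, named after their values were seen, ZNF140 and ZNF10 rose by 0.65 and 0.63 on the log2 scale (adjusted p = 0.0276 and 0.0304). ZNF26, the nearest, with 0.30, ZNF605 with 0.41 and ZNF268 with 0.49 did not pass (adjusted p = 0.212, 0.159 and 0.0893). ZNF10 is the source of the KRAB domain used in many engineered repressors. ZNF461 (chromosome 19, 36637192 to 36666853, minus strand) went from 10.33 and 7.79 to 18.68 and 16.09 TPM (0.88 ± 0.15, adjusted p = 0.0235). ZNF274 (chromosome 19, 58183029 to 58213562, plus strand), which binds zinc finger gene clusters and recruits SETDB1 to them, went from 22.02 and 24.7 to 39.87 and 37.99 TPM (0.71 ± 0.08, adjusted p = 0.0106). ZNF350 (chromosome 19, 51964343 to 51986856, minus strand) measured 5.74 and 4.71 against 8.5 and 13.78 TPM (0.93 ± 0.22, adjusted p = 0.0476). The RNase H1 libraries differed widely for ZNF350, and the gene passed in 4 of the 16 alternative settings, GC correction not among them (adjusted p = 0.0662).

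ZNF608 (chromosome 5, 124636913 to 124748807, minus strand) was the one gene without a KRAB box among the 8 largest increases. It has a single finger pattern and measured 11.66 and 12.16 TPM in the Flag libraries and 21.39 and 21.72 TPM in the RNase H1 libraries (0.81 ± 0.08, adjusted p = 0.00903). The groups were far apart compared with the spread inside each.

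**Figure D3:**
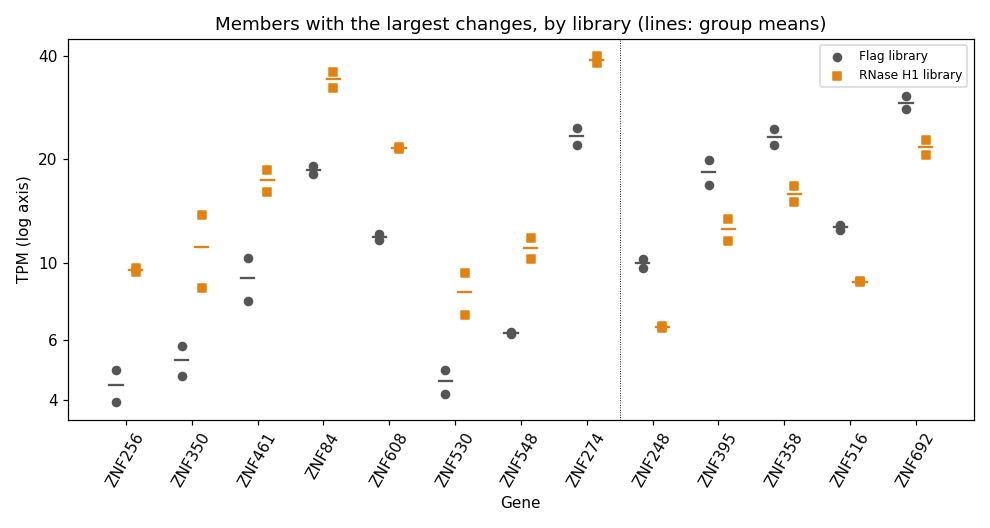
TPM on a log axis (vertical) of the 8 ZNF genes with the largest increases and the 5 that fell (horizontal, split by the dotted line), 1 point per library with group means as short lines. ZNF350 shows the widest spread between its RNase H1 libraries, at 8.5 and 13.78 TPM. The groups of no gene plotted overlap, because absence of overlap was a condition of the choice.

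Chromosome 19 held 125 of the 314 genes. Of these 34 rose (27.2%), 1 fell and 90 did not pass, with a median log2 fold change of 0.32. The 107 KRAB genes of the chromosome gave 32 of the increases (29.9%) and no decrease (median 0.35). The 93 KRAB genes elsewhere gave 18 increases (19.4%) and 1 decrease (median 0.21). Of all tested genes 6.3% rose and 5.54% fell. After GC correction 17 of the 107 rose (15.9%, median 0.30) and 14 of the 93 (15.1%, median 0.19), beside 5.32% of all tested genes. On chromosome 19, 608 tested genes of mean at least 5 TPM without a zinc finger symbol had 27 increases (4.44%) and 84 decreases (13.8%), with a median of -0.07. Their median transcript GC content was 60%, against 42.5% for the ZNF genes of the chromosome. After GC correction the 608 genes had 41 increases and 47 decreases with a median of 0.00, and the 125 ZNF genes had 18 increases and no decrease with a median of 0.28.

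Split at gaps over 1 Mb between genes with any zinc finger symbol, expressed or not, the 125 genes fell into 13 stretches. Of all tested genes 6.3% rose and 5.54% fell, and of those of mean at least 5 TPM 7.99% and 7.17%. The stretch from 43.5 to 45.1 Mb held 13 ZNF genes, of which 8 rose, with a median of 0.50, and 14 tested genes of mean at least 5 TPM without a zinc finger symbol, of which 3 rose and none fell, with a median of 0.04. Its increases, named after their values were seen, were ZNF45, ZNF230, ZNF222, ZNF224, ZNF234, ZNF227, ZNF112 and ZNF180, all with a KRAB box. ZNF222 went from 6.7 and 6.21 to 10.35 and 11.9 TPM (0.70 ± 0.11, adjusted p = 0.0226). ZNF45 went from 12.99 and 12.92 to 19.46 and 19.84 TPM (0.57 ± 0.08, adjusted p = 0.0164). After GC correction these 2 still passed (adjusted p = 0.0312 and 0.0191), and the other 6 had adjusted p of 0.0513 to 0.0739. In the same stretch ZNF428, which has no KRAB box, measured 43.29 and 41.54 against 32.88 and 36.01 TPM and did not pass (adjusted p = 0.0506).

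The stretch nearest the end of the long arm, 55.5 to 58.5 Mb, was the fullest, with 34 ZNF genes. There 10 rose, none fell and the median was 0.38, while 16 other genes had 2 increases, 1 decrease and a median of -0.02. From 51.6 to 53.6 Mb 4 of 22 ZNF genes rose (median 0.36), and from 34.7 to 37.8 Mb 3 of 18 rose (median 0.31). In the latter stretch 23 other genes had 1 increase, 5 decreases and a median of -0.17. From 7.07 to 9.79 Mb 3 of 10 ZNF genes rose and 1, ZNF358, fell. Over all 13 stretches the 94 other genes gave 6 increases and 9 decreases. Beside the counts in this paragraph, 7.99% of all tested genes of mean at least 5 TPM rose and 7.17% fell. Outside chromosome 19, increases were most numerous on chromosome 16 (7 of 23 ZNF genes), chromosome 1 (5 of 17) and chromosome 7 (5 of 22). On 9 chromosomes with 68 ZNF genes, chromosomes 3, 8, 17 and X among them, 0 rose by limma. At an unadjusted limma p under 0.05, 19 of the 68 were higher and 4 lower, beside 16.2% and 15.1% of all tested genes. Neighbouring ZNF genes share sequence and position and are not independent observations.

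**Figure D4:**
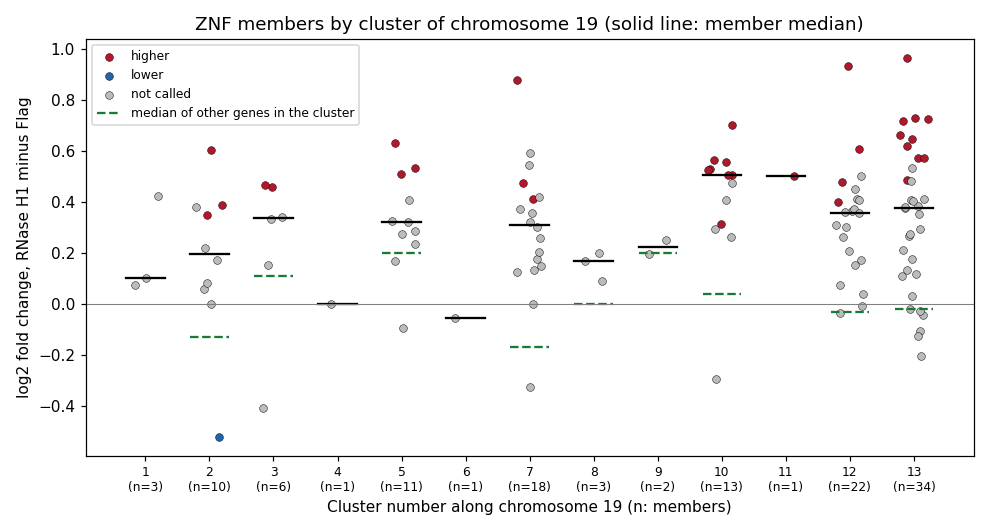
Log2 fold change, RNase H1 minus Flag (vertical), of the 125 ZNF genes of chromosome 19 in the 13 stretches, numbered along the chromosome (horizontal, number of ZNF genes in brackets). Solid lines are medians of the ZNF genes and dashed lines medians of the other tested genes of mean at least 5 TPM in the stretch. Stretch 10, with 8 of 13 genes risen, has the solid line at 0.50 and the dashed line at 0.04.

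Genes with more fingers had larger median fold changes. Finger patterns were counted in the longest translation of each gene. In the 24 ZNF genes with 0 to 2 of them the median log2 fold change was 0.03, with 3 increases and 1 decrease. It was 0.13 in the 76 genes with 3 to 7 patterns (10 increases, 2 decreases), 0.23 in the 114 with 8 to 12 (25 increases, 2 decreases) and 0.29 in the 100 with 13 or more (24 increases, no decrease). Across the 314 genes, which share libraries and ancestry, Spearman's rho between finger patterns and fold change was 0.33, and within the KRAB genes it was 0.15. Fingers and transcript GC content were themselves related (rho -0.28). The rho between GC content and fold change was -0.26 across the 314 genes and -0.22 across the 15310 tested genes with a GC value. After GC correction the medians of the 4 finger groups were 0.01, 0.12, 0.24 and 0.25. The shares that rose were then 16.7%, 9.21%, 17.5% and 13%, with no steady order, beside 5.32% of all tested genes. Before this correction they were 12.5%, 13.2%, 21.9% and 24%, beside 6.3% of all tested genes.

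By level, the 109 ZNF genes of 5 to 10 TPM had a median log2 fold change of 0.28, the 157 of 10 to 30 TPM 0.20 and the 48 of 30 TPM or more 0.16, with 18, 31 and 13 increases. A total of 15 of the 314 had a Flag mean under 5 TPM and entered through the RNase H1 libraries, and 7 of these passed the test. Just inside the threshold, ZNF701 and ZNF546 had means of 5.04 and 5.05 TPM and log2 fold changes of 0.35 and 0.20. Just outside it, ZNF169 and ZNF599 had means of 4.97 and 4.98 TPM and log2 fold changes of -0.46 and -0.11. The 96 ZNF genes of mean 1 to 5 TPM had 6 increases, no decrease and a median of 0.22. These increases (6.25%) were at the share of all tested genes, 6.3%, and all 6 were among the 66 with a KRAB box (9.09%). After GC correction 3 of the 96 rose (3.12%), beside 5.32% of all tested genes. Another 97 ZNF genes were under 1 TPM and were not tested. The median was 0.21 both in the 241 genes with under 5% of 50-base words shared with another gene and in the other 73.

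The 5 decreases were ZNF248, ZNF395, ZNF358, ZNF516 and ZNF692. ZNF248 (chromosome 10, 37776526 to 37858106, minus strand) was the one KRAB gene that fell, from 9.7 and 10.32 to 6.59 and 6.47 TPM (-0.55 ± 0.10, adjusted p = 0.03). ZNF516 (chromosome 18, 76358190 to 76495190, minus strand) went from 12.47 and 12.95 to 8.8 and 8.9 TPM (-0.48 ± 0.09, adjusted p = 0.0312). It overlaps an antisense gene, ZNF516-AS1, and the use of strand in counting is not given in the sources used here. ZNF358 (chromosome 19, 7515292 to 7521026, plus strand) went from 22.06 and 24.44 to 16.78 and 15.05 TPM (-0.52 ± 0.09, adjusted p = 0.0273). Its transcript is 69.1% GC, and after GC correction it no longer passed (adjusted p = 0.0632). ZNF692 went from 30.56 and 27.95 to 20.64 and 22.85 TPM and ZNF395 from 19.93 and 16.91 to 13.48 and 11.59 TPM, and both also missed the threshold after GC correction (adjusted p = 0.0567 for each). ZNF395 shares 41.7% of its 50-base words with another gene and is uncertain.

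Grouped by known role, 7 of the ZNF genes listed as binders of repeats or imprinted regions were among the 314. They had 2 increases (28.6%, beside 6.3% of all tested genes), 1 decrease (14.3%, beside 5.54%) and a median log2 fold change of 0.41. After GC correction 1 of the 7 rose and 1 fell, beside 5.32% and 4.79% of all tested genes. ZNF611, a binder of SVA elements, went from 6.38 and 8.19 to 10.74 and 12.36 TPM (0.60 ± 0.14, adjusted p = 0.0471) and missed the threshold after GC correction (adjusted p = 0.0686). ZNF649, a binder of LINE elements, went from 8.58 and 9.49 to 12.86 and 13.09 TPM (0.48 ± 0.10, adjusted p = 0.0355), and it overlaps ZNF577, so reads of the overlap are uncertain. ZNF248, described above, was the decrease. ZNF445, a regulator of imprinted genes, measured 14.13 and 13.67 against 15.29 and 13.92 TPM and did not pass (0.07, adjusted p = 0.665).

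Of the 28 genes listed as regulators of chromatin and transcription, 7 rose (25%, beside 6.3% of all tested genes), 2 fell (7.14%, beside 5.54%, or 7.17% at 5 TPM or more) and 19 did not pass, with a median of 0.19. ZNF274 led them. ZNF644, a partner of the histone methyltransferases EHMT1 and EHMT2, went from 79.33 and 74.94 to 101.34 and 99.09 TPM (0.37 ± 0.05, adjusted p = 0.0171). ZNF768 went from 107.48 and 110.18 to 130.07 and 132.94 TPM (0.27 ± 0.05, adjusted p = 0.0242). ZNF410, a transcription activator of CHD4, rose by 0.29, but 85.5% of its 50-base words occur in another gene. CHD4 itself, at 208.33 and 226.46 against 213.78 and 203.68 TPM, did not pass (adjusted p = 0.526). The decreases on this list were ZNF395 and ZNF692.

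Of the 15 genes listed for roles in RNA binding, ribosomes, ubiquitin transfer or the spindle, 0 passed by limma at the adjusted threshold, and their median was 0.08. At an unadjusted limma p under 0.05, 3 of the 15 were higher and 2 lower, beside 16.2% and 15.1% of all tested genes. ZNF207, a spindle and kinetochore protein, had the highest mean of all 314 genes, with 178.65 and 188.98 TPM in the Flag and 206.86 and 204.47 TPM in the RNase H1 libraries (0.16 ± 0.05, adjusted p = 0.0732). ZNF622, a ribosome assembly factor, measured 30.12 and 32.1 against 42.08 and 36.95 TPM (0.33 ± 0.08, adjusted p = 0.0548). ZNF277 measured 29.89 and 31.16 against 25.49 and 23.92 TPM (-0.29 ± 0.07, adjusted p = 0.0511), and passed after GC correction (adjusted p = 0.0343). ZNF598, the ubiquitin ligase that marks collided ribosomes, measured 28.81 and 26.62 against 22.48 and 23.99 TPM (-0.24, adjusted p = 0.0951). The next highest means, of ZNF664 at 167 TPM and ZNF638 at 149 TPM, had log2 fold changes of -0.03 and 0.05 that did not pass and whose sign changed in some settings.

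Of 32 tested corepressor and heterochromatin genes 2 rose, 4 fell and 26 did not pass, with a median log2 fold change of 0.02. The increases (6.25%) were at the share of all tested genes, 6.3%, and the decreases (12.5%) stood beside 5.54%. TRIM28, the KRAB corepressor, measured 514.81 and 549.46 TPM in the Flag libraries and 492.05 and 505.8 TPM in the RNase H1 libraries (-0.09, 95% interval -0.20 to 0.02, adjusted p = 0.217), and its sign turned after GC correction (0.02). SETDB1, the histone methyltransferase it recruits, measured 50.99 and 54.6 against 55.77 and 56.09 TPM (0.08, 95% interval -0.06 to 0.23, adjusted p = 0.399). Neither difference passed, although the groups overlapped for neither gene. Of 8 NuRD subunits on the list, 3 fell and 5 did not pass (CHD4, HDAC1, HDAC2, MTA2 and RBBP4, from -0.08 to 0.09), with a median of -0.07. MTA1 went from 88.87 and 89.74 to 65.29 and 69.36 TPM (-0.40 ± 0.05, adjusted p = 0.0156). RBBP7 went from 425.79 and 437.93 to 361.9 and 363.36 TPM (-0.25 ± 0.04, adjusted p = 0.018), and CHD3 from 63.32 and 61.31 to 49.96 and 51.14 TPM (-0.30 ± 0.06, adjusted p = 0.0296). Each of these 3 genes overlaps an expressed gene on the other strand.

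EHMT2, a euchromatic histone methyltransferase, was the other decrease, from 47.38 and 48.65 to 33.39 and 38.59 TPM (-0.41 ± 0.08, adjusted p = 0.0346), and after GC correction it missed the threshold (adjusted p = 0.0522). The increases were ATF7IP, the nuclear partner that stabilises SETDB1, with 26.33 and 27.04 against 33.89 and 33.27 TPM (0.32, adjusted p = 0.0349), and MORC3, a chromatin ATPase, with 25.19 and 25.63 against 33.95 and 31.51 TPM (0.35, adjusted p = 0.035). Both missed the threshold after GC correction (adjusted p = 0.0529 and 0.0515). CBX3, at 369.18 and 374.83 against 333.12 and 339.14 TPM, did not pass by limma (-0.15, adjusted p = 0.0547) but passed after GC correction (adjusted p = 0.0312). After that correction 0 of the 32 rose and 4 fell, beside 5.32% and 4.79% of all tested genes. ATRX, a remodeller of repeat chromatin, had the widest error, since its Flag libraries measured 95.91 and 51.85 TPM. Its RNase H1 libraries measured 42.31 and 42.32 TPM, and the difference did not pass (adjusted p = 0.117).

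**Figure D5:**
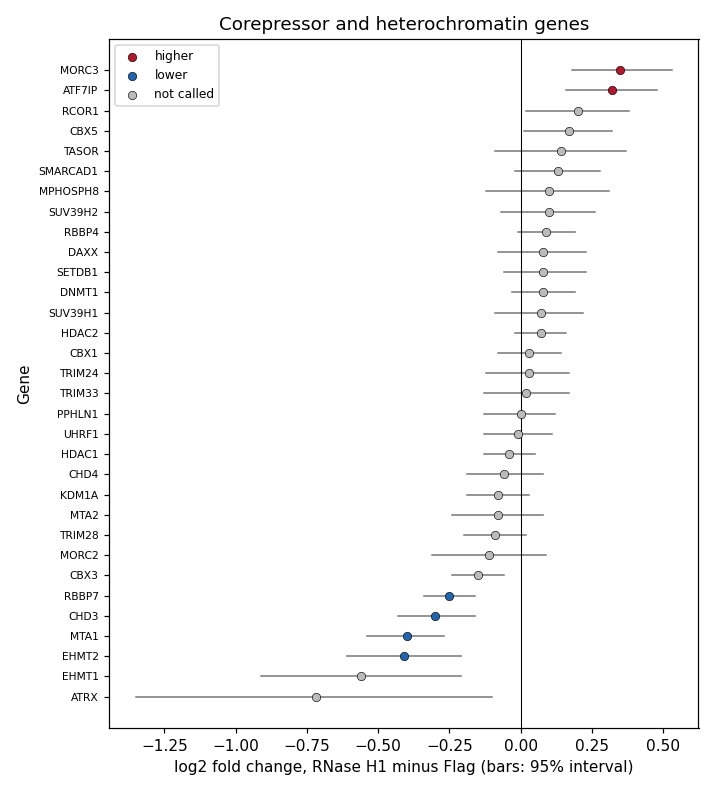
Log2 fold change, RNase H1 minus Flag (horizontal), of the 32 corepressor and heterochromatin genes (vertical), with bars for the 95% interval of the limma fit. MORC3 and ATF7IP are marked as risen and RBBP7, CHD3, MTA1 and EHMT2 as fallen, and the bar of TRIM28 runs from -0.20 to 0.02.

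Zinc finger genes under other symbols were fewer. Of 14 tested genes with ZFP symbols 2 rose (14.3%) and none fell, with a median of 0.24. ZFP30, a KRAB zinc finger gene, went from 10.89 and 9.56 to 14.35 and 13.69 TPM (0.42, adjusted p = 0.049, and 0.073 after GC correction), and ZFP36 encodes an RNA-binding protein of another finger class that went from 6.79 and 6.14 to 10.76 and 10.32 TPM (0.63, adjusted p = 0.0242). Among 15 ZSCAN and 6 ZKSCAN genes, which pair fingers with a SCAN domain, 0 passed by limma, with medians of 0.17 and 0.22. At an unadjusted limma p under 0.05, 6 and 2 of them were higher, beside 16.2% of all tested genes. In the 6 ZKSCAN genes both RNase H1 libraries exceeded both Flag libraries each time, an order seen in 31.3% of all tested genes. Of 38 ZBTB genes, which pair fingers with a BTB domain, 4 rose (10.5%, beside 6.3% of all tested genes and 7.99% of those at 5 TPM or more) and none fell, with a median of 0.09. After GC correction 1 of them, ZBTB43, still passed (adjusted p = 0.0408). ZBTB43 showed the largest of these 4 changes, from 19.86 and 15.95 to 26.75 and 29.78 TPM (0.64 ± 0.12, adjusted p = 0.0296). The other increases were ZBTB10, ZBTB2 and ZBTB6.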

How the data were processed

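RNA of 4 HEK293T libraries, 2 labelled Flag and 2 labelled RNase H1, was extracted with TRIzol and made into mRNA-seq libraries, per the labels' protocols. The authors deposited 1 table of TPM, and per the submitters' processing notes STAR and hg38 were used. How TPM were quantified, with which annotation and whether by strand, is not given in the sources used here.

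Genes of mean at least 1 TPM (15651) were compared as log2(TPM + 1) with limma 3.58.1 in R 4.3.3 (two-sided, variances moderated along an intensity trend). Benjamini-Hochberg adjustment covered all of these genes, with a threshold of 0.05. The added 1 makes fold changes smaller than ratios of TPM. Errors are standard errors of this fit. The procedure was tested on simulated data. Genes named were up to 8 largest increases and decreases among the genes that passed and whose groups did not overlap. Also named were the 3 highest means, 2 on each side of the 5 TPM threshold, up to 3 of smallest p per list, TRIM28 and SETDB1. Any other gene given with values, such as RNASEH1, markers or further list members, stands outside this rule and was named with its values seen. Members and lists were chosen with earlier results of these data known.

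Gene positions, GC content, exon length and translations came from GENCODE release 29 (GRCh38). KRAB boxes were sought with a profile of 40 residues (pyhmmer 0.12.3, E at most 1e-05) and fingers as a C-C-H-H pattern with 12 residues between the pairs. GC correction subtracted a spline of 4 degrees of freedom from each library's deviations. Promoter windows were RefSeq's (GRCh38.p14). Figures used matplotlib 3.10.9. Alternatives were 16, with 1 added after seeing the data.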

Additional observations from a re-analysis of the deposited data

How the results depend on the processing

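The median log2 fold change of the 314 genes stayed between 0.17 and 0.23 in the 16 alternatives. It was 0.23 with a pseudocount of 0.1 or after quantile normalization, 0.17 with a pseudocount of 5, 0.17 after correction for GC, exon length and gene span, and 0.19 to 0.23 with 1 library left out. The count of 67 called genes was 91 with a minimum mean of 5 TPM, 37 after correction for GC, exon length and gene span, and 36 after GC correction with the replicate block. It was 0 by limma without the filter on low values (127 higher and 14 lower at an unadjusted p under 0.05), 0 without the intensity trend (131 and 13), and 0 to 0 with 1 library left out, where the lone library is assumed to vary like the other group. The 6 called corepressor genes became 0 without the filter (4 higher and 6 lower at an unadjusted p under 0.05), 0 without the intensity trend (2 and 5), and 0 to 1 with 1 library left out. The replicate block alone gave 83 called genes, and same-numbered libraries did not deviate together (correlation 0.0307). With 2 libraries per group this correlation is the same for each number by construction. With genes of at least 5% shared words set aside, an alternative chosen after seeing the data, 56 were called. The sign turned for ZNF638 (-0.02 after GC correction, -0.02 with the replicate block added, 0.00 without RNase H1 replicate 2) and TRIM28 (0.02, 0.01 with length and span added, 0.02 with the replicate block added). It also turned for ZNF664 (-0.07 to 0.01 with 1 library left out, above 0 without Flag replicate 1 or RNase H1 replicate 2) and ZNF599 (-0.24 to 0.01, above 0 without RNase H1 replicate 1). Of 494 values over 31 named genes, 331 kept direction and side of the threshold, 144 lost the call, 10 gained it and 9 reversed. The causes were not tested. Depth is unknown, so counting error could not be set apart.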
